A study of Homo sapiens with 12 samples.

Results

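The arrays described here measured K562 cells that had been kept for 24 h with DMSO, the solvent used as the control of a drug experiment. They are 4 of the 12 arrays of the series and were chosen by title alone, as every array whose title begins with K562 DMSO. The remaining arrays, 4 with 0.5 µM imatinib and 4 with 0.05 µM nilotinib, entered no value below. All cells were cultured in RPMI medium with serum, glutamine and antibiotics, and total RNA was hybridized to Affymetrix U133 A 2.0 arrays. The labels number the DMSO samples 9 to 12, and these numbers name the replicates here. Nothing in the labels says that they were separate cultures, so each SD measures the spread between these arrays, which may be technical.

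K562 is an established human cell line from a chronic myeloid leukaemia in blast crisis. It carries BCR-ABL1, a fusion of the BCR and ABL1 genes that encodes a constantly active tyrosine kinase feeding the RAS, PI3K and JAK-STAT pathways. The line resembles an arrested erythroid precursor: it is known for making embryonic and fetal hemoglobin chains, for high transferrin receptor and for the erythroid transcription factor GATA1, and certain treatments move it towards red cells or megakaryocytes. It is a single line long kept in culture, and it stands for no other leukaemia.

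A value is a MAS5 signal, a linear intensity that sums up the probes of 1 probe set after local background subtraction and scaling of the array. Probe sets differ in how brightly they bind, so a rank below is a rank of signal and not of transcript number. For a gene with several probe sets the one with the highest mean was used, which favours genes with many of them. Of the genes given with values below, 118 have several probe sets, and for 45 of these at least 1 probe set was above background and at least 1 was not. Signals were measured for 11963 genes, with a median mean signal of 183. A percentile of 50 is therefore the middle of all measured genes.

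A gene was called above background when its signal exceeded, on all 4 arrays, the 95th percentile of 49 probe sets for smell and taste receptors, genes that blood cells are not known to use. This reference lay at 105.3, 104.3, 121.1 and 133.2 on replicates 9, 10, 11 and 12. Of the 11963 genes, 6302 (52.7%) were above it on all 4 arrays, 1256 on some and 4405 on none. In bulk RNA, fewer cells with a transcript and less of it per cell cannot be told apart. No test is given, because 1 group was described and genes are not replicates.

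Pairs of arrays correlated at 0.967 to 0.973 across probe sets (Pearson, log2(signal + 16)), where the points share probes and scaling and are no independent replicates. The trimmed mean was 500 on each array, and the median signal was 117 to 121. Replicate 9 stood apart at the top of the range: its highest signal was 23818 against 28494 to 30301 on the others, and it was the lowest array for 94 of the 100 brightest genes. Its hybridization controls had a median of 1295, above replicate 12 at 1182 and below the 1773 and 1852 of replicates 10 and 11. The ratio of 3′ to 5′ signal of the actin control, which rises with RNA breakdown, was 2.66, 3.15, 3.34 and 3.13 on replicates 9 to 12. That of the GAPDH control was 1.48, 1.74, 1.71 and 1.82, so replicate 9 was lowest for both. A link to its lower top signals was not tested. Among the 3837 genes with a mean signal of at least 500 the median coefficient of variation over the arrays was 7.25%, and among genes not above background it was 44.8%. With 4 arrays a mean is only as precise as their number allows.

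**Figure D1:**
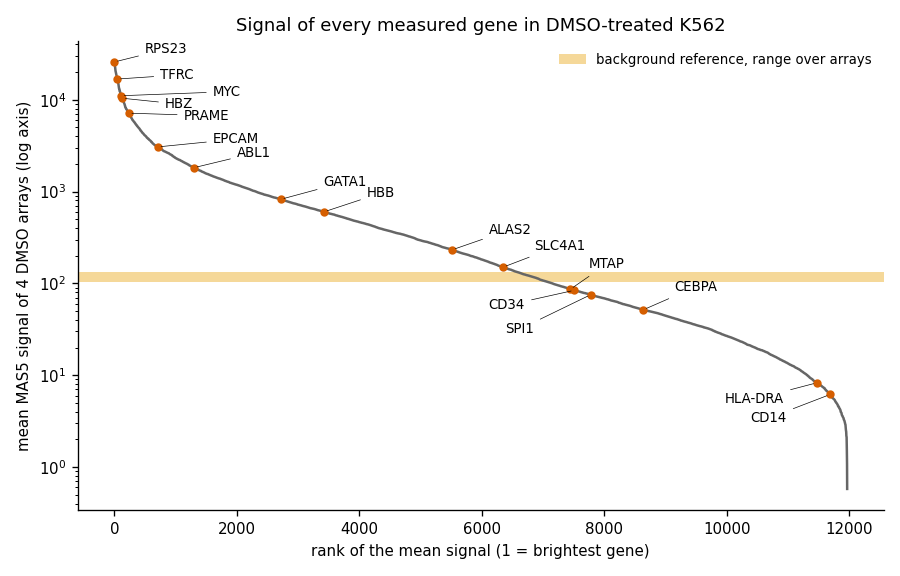
Mean MAS5 signal of 4 DMSO arrays on a log axis against its rank for all 11963 measured genes, with named genes as points and the background reference (104.3 to 133.2 over the arrays) as a band. RPS23 leads at 25811, GATA1 lies at 823, and CD34, SPI1 and CD14 lie under the band.

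The 4 genes given as markers of K562 were all above background on all 4 arrays, as were 52.7% of all measured genes. HBZ, the embryonic zeta chain of hemoglobin, gave signals of 9334, 10243, 11291 and 10705 on replicates 9 to 12, a mean of 10394 ± 826 (SD, n = 4, as in every value with ± below) and rank 128. TFRC, the transferrin receptor that brings iron into dividing cells and red cell precursors, read 15416, 18662, 17471 and 15719.7, with a mean of 16817 ± 1527 and rank 51. MYC, a transcription factor that drives growth, read 9647, 12209, 11162 and 11234, with a mean of 11063 ± 1058 and rank 109. For these 3 genes replicate 9 was the lowest array.
GATA1, the transcription factor that red cell and megakaryocyte precursors depend on, read 854, 786, 925 and 729, a mean of 823 ± 84.9. Its percentile was 77.3, and replicate 12 was the lowest array. HBZ, TFRC and MYC had percentiles of 98.9, 99.6 and 99.1.

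The top of the ranking belonged to the machinery of translation. Of the 25 brightest genes 18 encode cytosolic ribosomal proteins, and of the 100 brightest 50 do. The ranking leaves out probe sets that name several genes or none, the brightest of which had a mean of 27632. Among the ranked genes RPS23, a protein of the small subunit near its decoding centre, was the brightest. It read 22852, 26981, 27725 and 25685 on replicates 9 to 12, with a mean of 25811 ± 2145. RPS10, also of the small subunit, followed with 25713 ± 2897, and RPL31 and RPL37A of the large subunit with 25455 ± 2664 and 25436 ± 2184. On all 4 of these, replicate 9 was the lowest array, outside the range of the other 3. Ribosomal protein genes have many processed pseudogene copies, and 24 of the 25 brightest genes were read by probe sets whose design may bind several transcripts (marked s, x or a), against 40.4% of all genes. How much of these signals comes from such copies was not tested.

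Several of the other bright genes serve protein synthesis and folding. EEF1A1, which brings aminoacyl-tRNA to the ribosome, had a mean of 23797 ± 1983, and EEF2, which moves the ribosome along the messenger, 20669 ± 2263. EIF1, which guards the choice of the start codon, reached 20071 ± 1653. NACA, part of a complex that binds nascent chains, stood at 21832 ± 1362, TPT1, a growth-related tumour protein, at 21320.1 ± 1719, and PPIA, a prolyl isomerase, at 21306 ± 1926. HUWE1, a large ubiquitin ligase, had rank 12 with 22443 ± 2179.9, but its 4 probe sets disagreed: the others had means of 15.4 to 917, and 2 of the 4 were above background. The 25 brightest genes held 5.66% of the summed signal of all genes and the 100 brightest 17.2%.

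**Figure D2:**
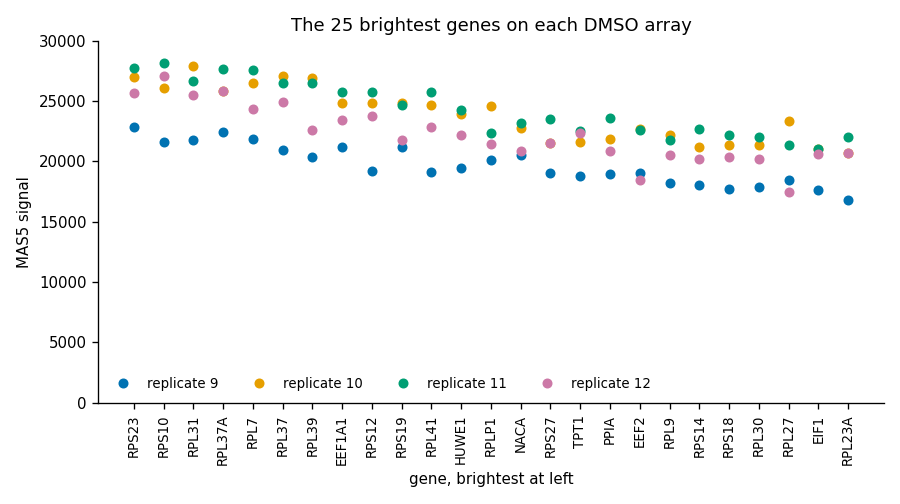
MAS5 signal of the 25 brightest genes on each DMSO array (points, 1 colour per replicate), ordered by mean. Replicate 9 is the lowest point for 23 of the 25 genes and replicate 12 for the other 2, EEF2 and RPL27.

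Messengers of ribosomal proteins and elongation factors are known to begin with a C followed by pyrimidines, a feature through which growth signals set their translation. The start windows of several of the brightest genes, 15 bases before the annotated start and 15 from it, show this feature, and 2 windows without it are set beside them. Capitals mark the unbroken run of pyrimidines (C or T) that begins at the annotated start. Sequences and coordinates are those of RefSeq on GRCh38.p14, read 5′ to 3′ on the strand of the gene.
RPS23, chr5:82278340-82278369, minus strand: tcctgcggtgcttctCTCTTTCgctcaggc
RPL31, chr2:101002274-101002303, plus strand: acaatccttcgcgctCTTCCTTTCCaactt
RPL37A, chr2:216498829-216498858, plus strand: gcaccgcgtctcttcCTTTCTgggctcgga
RPS12, chr6:132814554-132814583, plus strand: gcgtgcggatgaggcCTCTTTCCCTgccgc
RPS19, chr19:41860240-41860269, plus strand: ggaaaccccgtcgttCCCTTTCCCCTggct
RPLP1, chr15:69452803-69452832, plus strand: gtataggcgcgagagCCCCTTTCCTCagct
EEF1A1, chr6:73521018-73521047, minus strand: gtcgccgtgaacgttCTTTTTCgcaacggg
EEF2, chr19:3985449-3985478, minus strand: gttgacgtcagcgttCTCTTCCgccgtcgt
TPT1, chr13:45341169-45341198, minus strand: agcggctgagtcggcCTTTTCCgcccgctc
RPS14, chr5:150449725-150449754, minus strand: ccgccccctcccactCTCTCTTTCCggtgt
HUWE1, chrX:53686705-53686734, minus strand: agcgaggaggctttcgactgagggctagcg
PPIA, chr7:44796666-44796695, plus strand: ggccaggctcgtgccgttttgcagacgcca
In RPS23 the run holds 7 bases from the start, and in RPS19 11. The windows of HUWE1 and PPIA have no pyrimidine at the start and are printed with no capitals. Those of RPL9, RPL27 and EIF1, also among the 25 brightest genes, likewise have no pyrimidine at the start and are not printed.

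A start window was given for 21 of the 25 brightest genes, and 16 of these began with C and 4 further pyrimidines. Among 100 brightest genes with a window the share was 42%, among all 9563 genes with a window 4.94%, and among genes not above background 3.37%. Ribosomal protein genes carried it in 33 of 49 windows (67.3%) and translation factor genes in 9 of 40 (22.5%). The search was for these letters at 1 annotated start per gene, so a start a few bases away would be missed.

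Of the ribosomal protein genes as a list, 56 of 57 measured were above background, against 52.7% of all genes. In the brightest 10% of all genes were 52 of them. Their median percentile was 99.7. The exception was RPL3L, a muscle form of RPL3, with 44.1 ± 34.8. RPLP2, of the ribosomal stalk, read only 199 ± 45.7, and its other probe set had a mean of 43.9 and was not above background. How well these probe sets read the RPLP2 transcript was not tested. RPL10L, a copy of RPL10 known from the testis, had 214 ± 36.6. Translation factors followed with 48 of 52 above background, against the same 52.7% of all genes, and a median percentile of 94. EIF3E, EIF3M and EIF3L, subunits of the factor that recruits the small subunit to messengers, had means of 12531 ± 667, 10495 ± 1067 and 10199.5 ± 472. PABPC1, the main poly(A)-binding protein, stood at 18399 ± 1785.

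Genes that build the ribosome were also mostly above background. Of 28 measured, 27 were above background, against 52.7% of all genes, at a median percentile of 85.6. NPM1, a nucleolar chaperone of ribosome assembly, read 15588, 18554, 18571 and 16315 on replicates 9 to 12 (mean 17257 ± 1536), with replicate 9 lowest. NCL, which binds ribosomal RNA precursors, had a mean of 8079.6 ± 397, NHP2 of the pseudouridylating particles 6474 ± 297, and FBL, the methyltransferase of the box C/D particles, 6324 ± 371. UBTF, a factor of RNA polymerase I, was the member not above background, at 141 ± 23.9, and it failed only on replicate 12.

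The hemoglobin list held 6 measured genes, of which 5 were above background, against 52.7% of all genes. HBE1, the embryonic epsilon chain, gave 10023, 8899, 11472 and 12381 on replicates 9 to 12, a mean of 10694 ± 1541 and rank 116, while its other probe set had a mean of 28.9. HBE1 and HBZ are the chains of the first hemoglobin made in the yolk sac, and their percentiles were 99 and 98.9. HBD, the minor adult delta chain, read 823, 1038, 841 and 1156 (mean 964 ± 161, percentile 80.2). HBQ1, a theta chain of unclear function, had a mean of 641 ± 191, and HBB, the adult beta chain, read 588, 484, 572 and 761 (mean 602 ± 116). Replicate 12 was the highest array for HBE1, HBD, HBQ1 and HBB, and not for HBZ. AHSP, the chaperone of free alpha chains in later red cell precursors, had a mean of 66.8 ± 26.4 and was above background on no array. The gamma and alpha chain genes had no probe set naming a single gene and were not analysed here. Globin chain genes are related in sequence, so the signals of HBB and HBD may include other chains, which was not tested.

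All 11 measured heme synthesis genes were above background, against 52.7% of all genes. They ranged from ALAS2 to UROD, at a median percentile of 73.4. ALAS2, the erythroid form of the first enzyme, was the lowest, with 223, 303, 229 and 173 and a mean of 232 ± 53.8 (percentile 53.9). ALAS1, the form used by other tissues, had a mean of 512 ± 46.3. Among the later enzymes UROD, which decarboxylates uroporphyrinogen, was brightest with 6446 ± 282. CPOX, the next enzyme after UROD, had a mean of 2452 ± 84.1, PPOX, which follows it, 941 ± 78.1, and FECH, which inserts the iron, 1108 ± 54.8. GLRX5, of the iron-sulphur cluster pathway that FECH depends on, read 3567 ± 257.

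Genes of iron uptake and storage followed, with 13 of 15 above background, against 52.7% of all genes, and a median percentile of 83.1. FTL, the ferritin light chain that stores iron, read 14607, 17219, 18941 and 16988 (mean 16939 ± 1782), with replicate 9 lowest as for TFRC. PCBP2 and PCBP1, RNA-binding proteins that also deliver iron to ferritin, had means of 9526 ± 728 and 5309 ± 305. NCOA4, the receptor for ferritin breakdown, had a mean of 4324 ± 121. BLVRB and BLVRA, which reduce biliverdin, reached 3418 ± 241 and 2485 ± 368. TFR2, the second transferrin receptor, stood at 1174 ± 179.7. HMOX1, the inducible heme oxygenase, was not above background with 32.2 ± 38.1, nor was HAMP, the liver iron hormone, with 88.4 ± 21.4.

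Genes for the membrane of the mature red cell were spread over the range of signals. Of 24 measured genes for the membrane skeleton, blood groups and red cell enzymes, 16 (66.7%) were above background, against 52.7% of all genes, at a median percentile of 56.6. RHAG, the Rh-associated glycoprotein, was the brightest with 5562, 5848, 5852 and 5784 and a mean of 5762 ± 137 (percentile 97.3). XK, a membrane protein linked to the Kell antigen, followed with 2405 ± 94.5, CD59, which protects cells from complement, with 2297 ± 99.3, and BSG, which carries a blood group antigen, with 1527 ± 40.6. TMOD1, which caps actin filaments in the skeleton, had 1048 ± 35.3 and ICAM4, of the LW blood group, 767 ± 31.1. SLC4A1, the band 3 anion exchanger and the most abundant protein of the mature membrane, read 149, 166, 142 and 144, a mean of 150.2 ± 11.2, and was over the reference on each array. The 8 genes not above background included CA2, a carbonic anhydrase, with 3.64 ± 0.985, ACKR1, the Duffy antigen, with 12.5 ± 6.03, and EPB42, protein 4.2, with 13.6 ± 5.29.

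Regulators of the erythroid programme, among them the receptors EPOR and KIT, were mostly above background. Of 19 measured, 17 were above background, against 52.7% of all genes, at a median percentile of 77.3. MYB, which keeps precursors dividing, read 4896, 4829, 4842 and 4604 (mean 4793 ± 129, percentile 96.5). NFE2L2, a factor for antioxidant genes, had 3627 ± 338. LYL1 and LMO2, partners in the complex built around GATA1, had means of 2774 ± 142 and 2666 ± 277. KLF1, the erythroid factor of the beta globin promoter, read 2155, 1961, 1949 and 2224 (mean 2072 ± 138). NFE2, which acts in red cells and platelets, stood at 1451 ± 102. GATA2, the factor that precedes GATA1 in precursors, read 814, 1012, 972 and 958 (mean 939 ± 86.4). BCL11A, the repressor of fetal and embryonic globin genes, was not above background with 59.8 ± 11.8, nor was GFI1B, a repressor in red cell and platelet precursors, with 149.8 ± 23.8, which failed on replicate 12 alone.

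**Figure D3:**
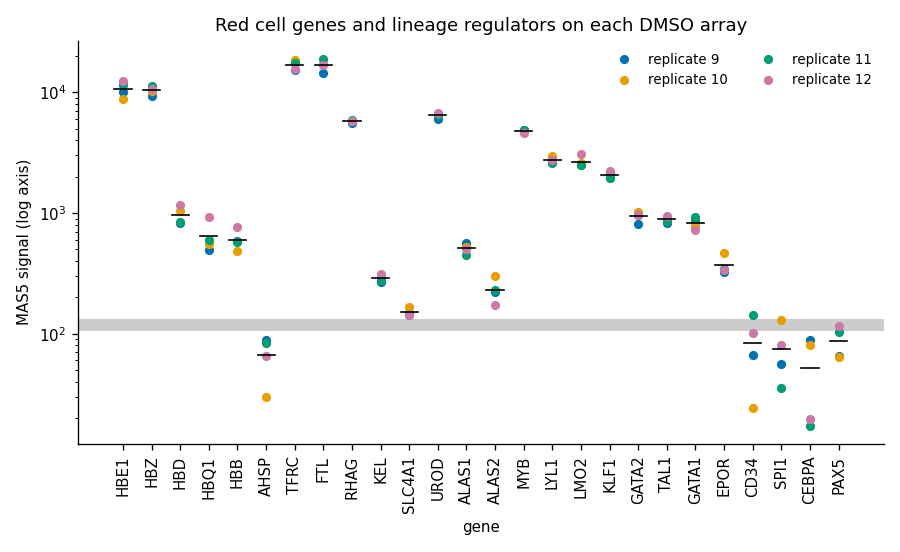
MAS5 signal on a log axis of red cell genes and lineage regulators on each DMSO array (points, 1 colour per replicate) with the mean as a bar and the background reference as a grey band. HBE1, HBZ, TFRC and FTL lie at the top, with means of 10394 to 16939, while AHSP, CD34, SPI1, CEBPA and PAX5 have means under the band.

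GATA1 and its relatives bind the letters GATA in DNA. The promoter windows of the red cell lists, 250 bases before to 50 after the annotated start, were searched on both strands for AGATAA, and 14 of 56 (25%) held it. Among all 9563 windows the share was 6.79%, among those of genes above background 4.64%, and among those of genes not above background 9.52%. Among windows of marker genes of other lineages it was 11.25% (18 of 160). TAL1, EPOR, KEL, RHD, SPTB and PKLR were named for holding a match, after their values were seen. Each line gives the 150 bases before the start (RefSeq, GRCh38.p14), with the match in capitals, AGATAA or its reverse complement TTATCT.
CPOX, chr3:98593612-98593761, minus strand: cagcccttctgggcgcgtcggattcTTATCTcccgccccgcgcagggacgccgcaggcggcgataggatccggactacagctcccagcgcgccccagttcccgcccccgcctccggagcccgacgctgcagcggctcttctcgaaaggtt
HBD, chr11:5234484-5234633, minus strand: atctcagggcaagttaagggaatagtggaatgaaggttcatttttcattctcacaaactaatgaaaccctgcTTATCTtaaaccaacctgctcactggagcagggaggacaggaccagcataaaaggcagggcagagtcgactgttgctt
TAL1, chr1:47232336-47232485, minus strand: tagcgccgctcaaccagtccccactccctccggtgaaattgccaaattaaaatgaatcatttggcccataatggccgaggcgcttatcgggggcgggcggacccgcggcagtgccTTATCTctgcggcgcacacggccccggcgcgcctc
EPOR, chr19:11384315-11384464, minus strand: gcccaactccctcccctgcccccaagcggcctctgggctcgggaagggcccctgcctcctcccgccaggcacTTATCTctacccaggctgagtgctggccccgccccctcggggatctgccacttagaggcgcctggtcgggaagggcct
KEL, chr7:142962364-142962513, minus strand: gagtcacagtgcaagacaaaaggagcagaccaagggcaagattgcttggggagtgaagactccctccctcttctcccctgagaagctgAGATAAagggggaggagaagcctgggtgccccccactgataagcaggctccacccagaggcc
ALAS2, chrX:55030978-55031127, minus strand: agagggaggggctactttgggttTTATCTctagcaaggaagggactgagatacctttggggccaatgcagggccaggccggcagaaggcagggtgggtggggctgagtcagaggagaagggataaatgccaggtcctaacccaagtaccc
EPB42, chr15:43221019-43221168, minus strand: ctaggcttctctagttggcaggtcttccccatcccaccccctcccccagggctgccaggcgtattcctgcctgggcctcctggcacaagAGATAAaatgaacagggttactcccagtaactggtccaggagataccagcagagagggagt
The match lay 78 bases before the start in HBD and in EPOR, 35 in TAL1, 62 in KEL and 127 in ALAS2. CPOX and EPB42 each have a second match farther upstream, first met 207 and 208 bases before the start.

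LYL1, with 2774 (percentile 93.3), and CPOX, with 2452, were the brightest of the 14 genes with a match, and EPB42, with 13.6, was not above background. TAL1, a central factor of blood formation, had a mean of 891 ± 52.9, and EPOR, the erythropoietin receptor, read 322, 469, 343 and 339 (mean 368 ± 67.7). RHD, the Rh D antigen, had 356 ± 66.3, KEL, the Kell antigen, 288 ± 19.3, and SPTB, beta spectrin, 251 ± 48.9. PKLR, the pyruvate kinase of red cells and liver, stood at 202 ± 16.4. A match says only that these letters are in the window; binding was not measured.

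Genes of the stem and progenitor cell passed at a share close to that of all genes. Of 19 measured, 9 were above background, against 52.7% of all genes, at a median percentile of 40.5. CD34, the surface marker of blood progenitors, read 66.5, 24.1, 144 and 102, above the reference on 1 of 4 arrays. KIT, the stem cell factor receptor, was above it on all with a mean of 352 ± 43.2. PTPRC, the CD45 phosphatase of white cells and their precursors, had a mean of 1733 ± 58.3, and ANGPT1, a ligand of the TEK receptor, 1246 ± 97.7. TEK itself had 87.4 ± 64.1 and was not above background. HLF, PROM1 and CD38, markers used to divide the progenitor pool, had 28.5 ± 10.5, 31.2 ± 9.48 and 33 ± 28.7, none of them above background.

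Several germ cell genes were bright. Cancer testis genes are normally limited to the germ line and reappear in tumours. Of 17 measured, 10 were above background, a share near the 52.7% of all genes, and 4 were in the brightest 10%. MAGEA6 read 7569.9, 8081, 8365 and 7896 (mean 7978 ± 333), PRAME, a melanoma antigen, 6877, 7237, 7399 and 7075 (mean 7147 ± 223), and MAGEA12 had a mean of 5201 ± 203. IGF2BP3, a fetal RNA-binding protein, stood at 2288 ± 65.7, SSX1, a partner of a sarcoma fusion, at 1326 ± 122, and MAGEA1 at 1119 ± 128. Some MAGEA genes are closely related in sequence, so their signals may include each other, which was not tested. DDX43 and GAGE1, at 4.39 ± 3.08 and 4.35 ± 2.71, were not above background.

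The fusion partners of this leukaemia could both be read. ABL1, the kinase, gave 1808, 1980.4, 1796 and 1702 on replicates 9 to 12, a mean of 1822 ± 116 and percentile 89.1. BCR gave 256, 257, 266 and 319.7, a mean of 275 ± 30.5, and only 1 of its 2 probe sets was above background. Where the probes lie along the transcripts was not analysed here, so the fusion and the normal messengers are not told apart. Of 23 measured partners and substrates, 15 (65.2%) were above background, against 52.7% of all genes. CRKL, the adaptor that is a main substrate of the fusion kinase, was brightest with 6150.2, 6451, 6699 and 5194 (mean 6123 ± 659, percentile 97.6). PTPN11, the SHP2 phosphatase, had 4074 ± 236, GAB2, the docking protein that links the fusion to PI3K, 1078 ± 90.8, and the kinases LYN, YES1 and FYN 2286 ± 54.9, 2096 ± 193 and 1244 ± 41. LCK, a kinase of T cells, had 17 ± 7.44, and SRC and ABL2 had 30.4 ± 13.5 and 24 ± 13.7, none above background.

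Downstream, the JAK-STAT list had 13 of 20 members (65%) above background, against 52.7% of all genes. SOCS2, a feedback inhibitor and known target of STAT5, was the brightest member with 10205, 11338, 10888 and 10392 (mean 10706 ± 510.5, rank 115). PIM1, a survival kinase, had a mean of 2804 ± 118, STAT3 2689 ± 142, SOCS1 1263 ± 326 and CISH, another feedback inhibitor, 975 ± 104. STAT5B had 1074 ± 90.6. The receptors IL3RA and IL2RA lay under background with 13.4 ± 4.41 and 33.5 ± 40.8, as did the cytokine OSM with 14.4 ± 13.5.

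In the RAS-ERK list 18 of 24 (75%) were above background, against 52.7% of all genes. Next to MYC stood EGR1, an immediate early transcription factor, with 2904 ± 135 and CD69, an activation marker of lymphocytes, with 2272 ± 116. SPRED2, an inhibitor of RAF activation, had 1122 ± 70.4 in 1 of 3 probe sets, with 3.28 and 11.3 in the others, and ETV5, a factor downstream of ERK, 743 ± 39.5. The kinases MAP2K2 and MAP2K1 had means of 1410.1 ± 160.4 and 893 ± 47.8. FOS, the immediate early partner of JUN, read 26.8 ± 12.7, and the phosphatase DUSP6 and the factor ETV4, both known as ERK targets, 40.2 ± 14 and 49.5 ± 28.8, none above background.

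PI3K-AKT-mTOR genes were above background in 16 of 19 cases (84.2%), against 52.7% of all genes. RHEB, the GTPase that switches on mTORC1, had 6607, 7375, 7614 and 7366 (mean 7241 ± 438), and DDIT4, a stress-induced inhibitor of mTORC1, 5164, 5008, 5095 and 4932 (mean 5049.8 ± 101). EIF4EBP1, the translation repressor that mTORC1 inactivates, had 2157 ± 67.2, and PIK3CB, a catalytic subunit, 1551 ± 40.1. AKT2, TSC2 and PDK1 were not above background. By its symbol PDK1 is a kinase of pyruvate dehydrogenase. PDPK1, the AKT-activating kinase that is often called PDK1 too, was above background in 2 of its 3 probe sets. It was named after its values were seen. In the BCL2 family 11 of 17 (64.7%) were above background, against 52.7% of all genes. BNIP3L, which clears mitochondria from maturing red cells, was the brightest with 2615 ± 65, MCL1, a survival protein, had 1902 ± 55.4, PMAIP1, a death-promoting member, 1285 ± 113 and BCL2L1, which encodes BCL-XL, 856 ± 58.6. BIK, BOK and BCL2A1 had means of 11.5 ± 5.65, 13.9 ± 5.62 and 33.5 ± 7.65, under background.

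Most genes of growth and division were above background. Over its 9 lists, 299 of 317 measured genes (94.3%) were above background, against 52.7% of all genes, and 176 were in the brightest 10%. All 42 DNA replication genes and all 36 mitosis genes were above background on every array. TYMS, which makes thymidylate, read 8846, 8673, 9071 and 9469 (mean 9015 ± 344, percentile 98.6), and its other probe set had a mean of 9.26. GMNN, which holds back a second round of replication, had 5669.6 ± 276, RRM1 of ribonucleotide reductase 4928 ± 76.6, MCM6 of the replicative helicase 4682 ± 116, RFC4 of the clamp loader 4644 ± 155 and PCNA, the clamp, 4104 ± 206. The lowest were POLA2 with 208 ± 24.7, GINS4 with 233 ± 31.8 and LIG1 with 302 ± 38.8.

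Among mitosis genes CDK1, the kinase that starts mitosis, was the brightest with 5050.2, 4545, 4337 and 4344 and a mean of 4569 ± 335. BUB3 and MAD2L1, of the spindle checkpoint, had 4083 ± 111 and 3997 ± 217, and PTTG1, securin, 3689 ± 275. The cyclins CCNB1 and CCNB2 had 3151 ± 112 and 3126 ± 118. UBE2C, a ubiquitin-conjugating enzyme of mitotic exit, was the lowest with 181 ± 33.1.
Of the G1 list 16 of 23 (69.6%) were above background, against 52.7% of all genes. CCND2 was the brightest cyclin D with 5804, 5469, 6256 and 5671 (mean 5800.0 ± 334), followed by CCND3 with 2385 ± 128. CDK4, their kinase, had 3872 ± 103, while its relative CDK6 read 24.1 ± 20.6, under background. BTG1, an antiproliferative gene, had 4630.0 ± 28.7, and the inhibitor CDKN1B, p27, 2613 ± 214.

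Genes around the CDKN2A and CDKN2B inhibitors were not called above background. K562 is known to lack a segment of the short arm of chromosome 9 with these genes on every copy. CDKN2B had 5.76 ± 2.62. CDKN2A read 130.1, 105, 156 and 120.4 in the brightest of its 3 probe sets, a mean of 128 ± 21.4. These signals straddled the reference, above it on replicates 9, 10 and 11 and under it on replicate 12, so that CDKN2A would be called above background without that array. MTAP, a neighbour that salvages methionine and is used by most tissues, had 86.3 ± 29.3, with 0 of 5 probe sets above background. In the order of genes along the chromosome, 11 measured genes in a row around CDKN2A, with 18 probe sets, had none above background on all 4 arrays. The run ended at IFNA17, with 199 ± 76.1, on one side and at CAAP1, with 1618 ± 100, on the other, and without replicate 12 it would break at CDKN2A. Of its genes 5 are interferon alpha genes and ELAVL2 is a neuronal gene, which are silent in most cells, whereas MTAP and KLHL9 (78.2 ± 47.6) are widely used. KLHL9, IFNA17 and CAAP1 were named after their values were seen. DNA was not measured, and the part of a deletion in these values was not tested.

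In the MYC network 13 of 16 (81.25%) were above background, against 52.7% of all genes. Beside MYC itself ODC1, the polyamine enzyme and a classical MYC target, had 7893, 8469.6, 8604 and 8352 (mean 8329.5 ± 309), and MAX, the partner of MYC, 3089 ± 65.1. MYCN and MXD1 had 12.8 ± 3.48 and 7.63 ± 2.39, under background. Among chaperones all 27 were above background, and 21 were in the brightest 10%. HSPD1, the mitochondrial chaperonin, read 17569.7, 20342, 20373 and 18699 (mean 19246 ± 1364), HSP90AA1 and HSP90AB1, which hold many kinases, 12325 ± 909 and 10650.5 ± 722, and CCT8, of the chaperonin that folds actin and tubulin, 9872 ± 279. In the proteasome 37 of 39 were above background. PSMB1, a subunit of the core, had 9488 ± 495. The members under background were PSMB8 with 84.9 ± 46.6 and PSMB9 with 100.1 ± 30.6, which replace the standard subunits in immune cells. The third such subunit, PSMB10, was above background with 488 ± 35.3; it was named after its values were seen.

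Metabolic lists had a similar share above background. Over 7 lists, 189 of 200 (94.5%) were above background, against 52.7% of all genes, at a median percentile of 93.4. Of 65 genes of the respiratory chain and ATP synthase, 50 were in the brightest 10%. COX4I1, COX6A1 and COX7B, subunits of cytochrome oxidase, had means of 12734 ± 1199, 11992 ± 614 and 11949.6 ± 540.4, and CYCS, cytochrome c, 11709 ± 968. ATP5MJ and ATP5PB, of the ATP synthase, had 11321 ± 1081 and 11291 ± 741. The 3 members under background were COX7A1 (8.37 ± 2.68) and COX6A2 (129 ± 51.3, under the reference on replicate 11 alone), forms known from muscle, and ATP5MC2P1, a pseudogene (137 ± 49.2). In the TCA cycle, where 19 of 21 measured genes were above background, MDH2, malate dehydrogenase, led with 11369 ± 553, and OGDH and PC, at 63.3 ± 89 and 13 ± 2.21, were not above background. OGDH rested on replicate 10, with 197 there and 14.3 to 23.8 on the others.

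Of the genes from glucose uptake to lactate, 21 of 22 measured were above background, against 52.7% of all genes. GAPDH had 15334, 17439, 17409 and 16618 (mean 16699.8 ± 987), and all 6 of its probe sets were above background. LDHB and LDHA, the subunits of lactate dehydrogenase, had 15082 ± 1081 and 12574 ± 865, PGK1, phosphoglycerate kinase, 10784 ± 956, ENO1, enolase, 10041 ± 691 and ALDOA, aldolase, 9292 ± 558. TALDO1, of the pentose phosphate pathway, had 6644 ± 169. PFKL, a phosphofructokinase, was among the lowest with 380.3 ± 46.8, ALDOC, the brain aldolase, had 319 ± 77.4, and ENO2, the neuronal enolase, lay under background with 8.96 ± 4.55.

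Enzymes that make nucleotides were above background in all 24 cases, against 52.7% of all genes. After TYMS came DUT, which removes dUTP, with 7968 ± 372, NME1, a nucleoside diphosphate kinase, with 5939 ± 192, IMPDH2, the guanine branch enzyme, with 5592 ± 303 and PAICS, of purine synthesis, with 5307 ± 267. Genes of the amino acid response and one-carbon metabolism were above background in 25 of 26. MTHFD2, the mitochondrial folate enzyme, read 8044, 8776, 8709.6 and 7723 (mean 8313 ± 514). ATF4, the transcription factor of the response, had 7926 ± 554, ASNS, asparagine synthetase, 7920.4 ± 417, and TRIB3, a pseudokinase induced by stress, 5413 ± 639. GARS1 and WARS1, which charge tRNA, had 7573 ± 494 and 6412 ± 216. SHMT1, the cytosolic serine enzyme, was the member under background with 61.6 ± 12.8.

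Sterol synthesis was the dimmest metabolic list, with 2 genes in the brightest 10% and a median percentile of 73.9. Of its 18 measured genes, 16 were above background, against 52.7% of all genes. SQLE, squalene epoxidase, had 2908 ± 259 and FDPS, which makes farnesyl diphosphate, 2649 ± 71.8. HMGCS1, at the entry of the pathway, had 1065 ± 65. Redox genes were above background in 22 of 24. SOD1, superoxide dismutase, had 10159.7, 10731, 10453 and 11219 (mean 10641 ± 451), GSTO1, a glutathione transferase, 9894 ± 885, and the peroxiredoxins PRDX6 and PRDX1 8478 ± 621 and 8375 ± 424. GPX1, the main cytosolic glutathione peroxidase, was read by 1 probe set at 5.67 ± 2.16 and was not above background.

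**Figure D4:**
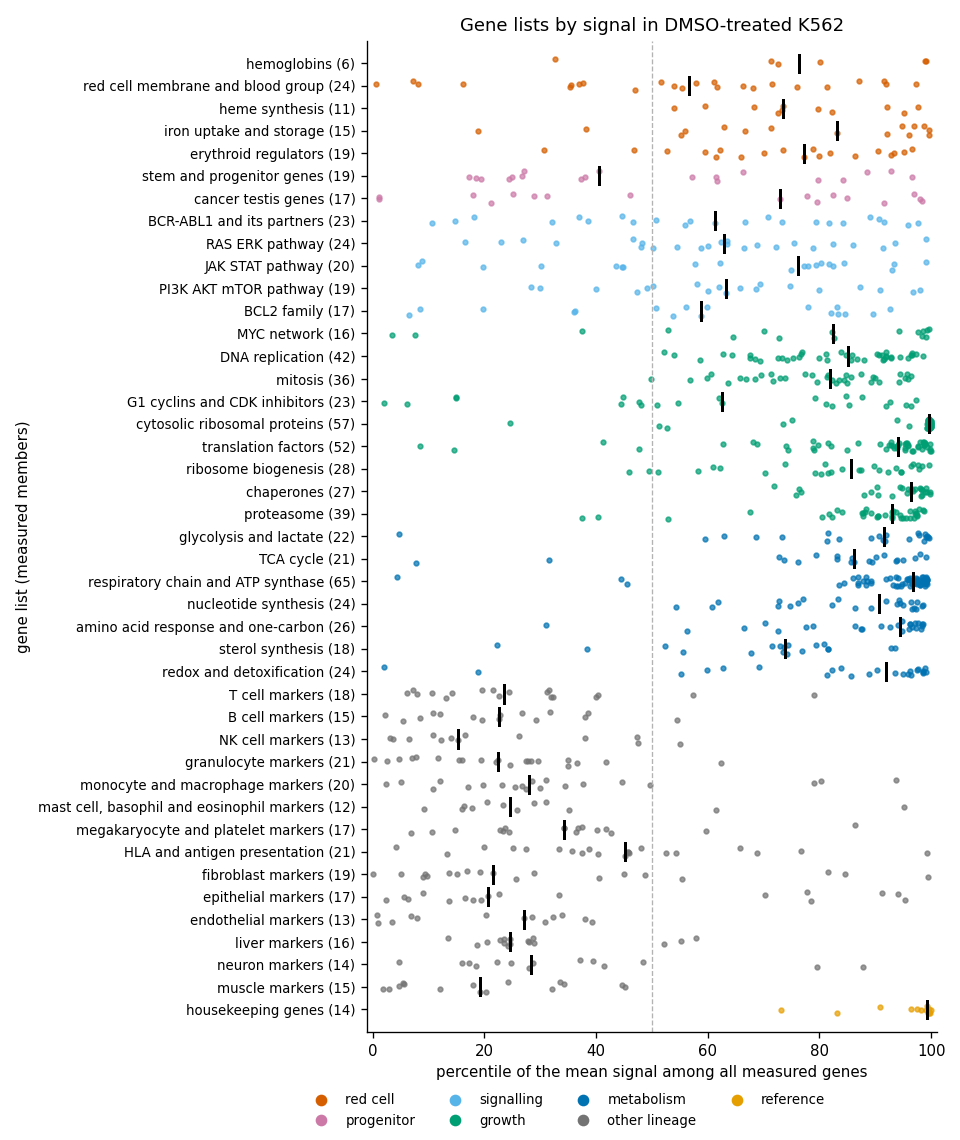
Percentile of the mean signal among all measured genes for the measured members of 43 gene lists (points, coloured by class; number of members in brackets), with the list median as a black bar and 50 as a dashed line. Growth and metabolism lists lie to the right, ribosomal proteins at a median of 99.7, and markers of other lineages to the left.

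Markers of other cell types were mostly not above background. Over 14 lists, 37 of 230 measured genes (16.1%) were above background, against 52.7% of all genes and 62 of 75 (82.7%) on the red cell lists. T cell markers passed in 2 of 18 cases, B cell markers in 1 of 15, NK cell markers in 1 of 13 (2 without replicate 12) and granulocyte markers in 1 of 21. CD3G, a chain of the T cell receptor complex, had a mean of 10.9 ± 3.58, while CD3D had 282 ± 40. LEF1, a WNT factor of lymphocytes, had 905 ± 91.9, with 1 of its 3 probe sets above background. PAX5, the B cell factor, read 65.9, 64.1, 104 and 117, above the reference on no array, and MS4A1, the CD20 antigen, had 90.6 ± 50.7. CD22 had 239 ± 32.4, with 1 of its 4 probe sets above background. ELANE, neutrophil elastase, had 8.95 ± 1.36, and SPI1, a factor of granulocytes and monocytes, read 56, 129.6, 35.7 and 80.1, above the reference on replicate 10 alone. CEBPA, another such factor, read 89.3, 80.1, 17.3 and 19.7 and exceeded it on no array.

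Single markers stood out on these lists. CD14, the monocyte receptor, had 6.16 ± 1.96, but LYZ, lysozyme, read 2910.4, 2985, 3075 and 2790.3 (mean 2940.2 ± 120.4, percentile 93.7) and CST3, cystatin C, had 968 ± 31.1. ITGAM, the CD11b integrin, had 905 ± 138, with 1 of its 2 probe sets above background. PRG2, the major basic protein of eosinophils, read 3525, 3392, 3629.9 and 3873 (mean 3605 ± 203, percentile 95.1), whereas the tryptases TPSAB1 and TPSB2 had 26 ± 24 and 29.2 ± 19.3. Among megakaryocyte markers only CD9, with 323 ± 55, and NFE2 were above background, 2 of 17, against 52.7% of all genes. ITGA2B, the platelet integrin CD41, had 82.4 ± 67.4 and 0 of 4 probe sets above background.

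Antigen presentation was read in part. B2M, the light chain of class I molecules, read 12116, 14182, 13769.6 and 12624 (mean 13173 ± 965, percentile 99.3). TAPBP, which helps load peptides onto class I molecules, had 794 ± 107 (percentile 76.7), with 1 of its 2 probe sets above background. HLA-C had 525 ± 38.5, HLA-E 448 ± 88 (2 of 3 probe sets above background) and HLA-B 213 ± 14.9, class I heavy chains whose probe sets may share sequence with each other. HLA-DRA, the class II chain, had 8.26 ± 3.31, and CD74, its invariant chain, 21.2 ± 22.2. Of the list 7 of 21 (33.3%) were above background, against 52.7% of all genes.

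Epithelial and mesenchymal lists gave further exceptions. KRT18, a keratin of simple epithelia, read 3694, 3721, 3651 and 3938 (mean 3751 ± 128), EPCAM, an epithelial adhesion molecule also found on early red cell precursors, 3132, 3039.7, 3072 and 3017 (mean 3065 ± 50.1), and KRT19 had 2219 ± 64. KRT8, the usual partner of KRT18, had 878 ± 77.9, and MUC1, a membrane mucin, 844 ± 130.0. The keratin KRT14 and the claudins CLDN4 and CLDN3 had 6.23 ± 3.8, 10.3 ± 3.99 and 11.2 ± 2.29, under background, so the list median was at percentile 20.7. VIM, the intermediate filament of mesenchymal and blood cells, had 13764 ± 852. SPARC, a matrix protein, had 1065 ± 121, with 1 of its 2 probe sets above background, but LUM and PDGFRB, of fibroblasts, had 0.577 ± 0.294 and 9.31 ± 1.83. Endothelial and muscle markers were above background in 0 of 13 and 0 of 15 cases, against 52.7% of all genes. TUBB3 and GAD1, from the neuron list, had 1607 ± 155 and 932 ± 128, and MAP2 had 28.1 ± 25. CYP3A4, a liver enzyme, had 290.3 ± 94.5, with 1 of its 4 probe sets above background. AFP, a fetal plasma protein, had 208 ± 33.5, and TTR 21.4 ± 10.8.

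The arrays varied most, among genes with a mean signal of at least 500, for BANP, a nuclear matrix protein, which read 192, 640.0, 766 and 601 (coefficient of variation 45.2%). There replicate 9 was far under the other 3. ST3GAL2, a sialyltransferase, read 1008, 1807, 837 and 715, with replicate 10 highest, and FAXDC2, a hydroxylase domain protein, 837, 691, 704 and 239, with replicate 12 lowest. NACA4P, a pseudogene of NACA, read 5329.9, 10389, 4158 and 6269.7. DHX9, an RNA helicase, read 784, 653, 1396 and 826, with replicate 11 highest. No single array set the pattern. DIP2A, PDCD11, FKBP2, CDYL and HLA-F-AS1 complete the 10, with coefficients of 38.2, 33.7, 32.9, 31.4 and 31.4%. At the other end, 2816 of the 3837 genes at this level had a coefficient under 10%.

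Promoter letters differed along the ranking. Windows of 300 bases were given for 9563 of 11963 genes (79.9%), and 9 motifs, chosen after signals had been seen, were searched on both strands. TATAAA, the TATA box, was in 5.29% of windows of genes above background, in 12.1% of the others and in 18.1% of those on the other lineage lists. Among the 100 brightest genes with a window its share was 13%. CCGGAAG, bound by ETS factors, was in 21.6% against 7.19%, and in 36.7% of ribosomal protein genes. GCGCANGCG, of NRF1, a factor for mitochondrial genes, was in 16.9% against 6.1%, and AAGATGGC, of YY1, in 6.95% against 1.97%. GGGCGG, the GC box, was in 71.9% against 52%.
CACGTG, the E-box that MYC and MAX bind, was in 11.1% against 7.45%, and in 46 of 268 windows (17.2%) of the growth lists. CCAAT was in 38.7% against 35.6%, and CCACCC, which KLF1 and other factors bind, in 37% against 38.8%, and in 46.4% of the red cell lists. The median number of CpG dinucleotides in a window was 27 for genes above background, 16 for the others and 6 on the other lineage lists. Several of the motifs contain a CpG, and the part of this number in the shares was not tested. The motifs were searched one by one, and several can overlap in a window.

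**Figure D5:**
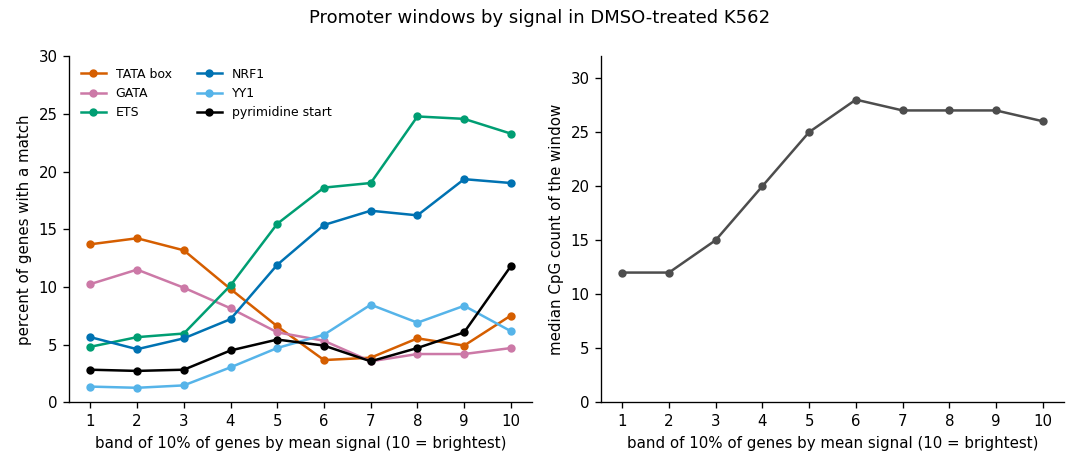
Left, percent of genes whose promoter window holds each motif (or, for the pyrimidine start, begins at the annotated start with C and 4 pyrimidines), in 10 bands of equal gene number ranked by mean signal (10 = brightest); right, median CpG count of the window. TATA and GATA matches are more frequent in the dim bands, ETS and NRF1 matches in the bright ones, and the pyrimidine start reaches 11.8% in the brightest band. The TATA share is 3.66% in band 6 and 7.52% in band 10.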

How the data were processed

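Per the labels, biotin-labelled RNA of K562 cells was put on Affymetrix U133 A 2.0 arrays. The authors deposited 1 linear intensity per probe set and array, computed with MAS5 per the submitters' processing notes. Its version is not given in the sources used here. These intensities entered unchanged. Only the 4 DMSO columns were read.

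Of 22277 probe sets 62 controls were left out. Of the rest 19070 named 1 gene, 1043 several and 2102 none in the platform annotation given, and only the first kind was used. Symbols were updated by gene identifier for 19058 of them, which gave 11963 genes. The probe set with the highest mean stood for a gene. Background was the 95th percentile per array of probe sets for olfactory and taste receptors, without the receptor families that flank the beta globin genes.

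The 43 gene lists, the markers and the alternatives were chosen with earlier results of these data known. Named were the 25 brightest genes, the markers, the hemoglobins, the brightest 8 and dimmest 3 of each list (5 and 4 for other lineages), a set of leukaemia genes, and the 10 most variable genes with a mean of at least 500. Promoter sequences are from RefSeq (GRCh38.p14) and were matched by gene for 9563 genes. No groups were compared; Dixon's 95% criterion was used on single genes to find an array apart from the others. The choice of probe set, ranks, background calls and quantile normalization were tested on simulated data. Python 3.11.15 was used with numpy 2.4.6, pandas 2.3.3 and matplotlib 3.10.9.

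Alternatives were other background references, other probe set rules, quantile normalization, geometric means, fewer arrays required, and each array left out.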

Additional observations from a re-analysis of the deposited data

Results flagged for a closer look

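Of the 263 genes whose values are given, 21 (7.98%) had 1 array far from the other 3, by Dixon's 95% criterion on the gap over the whole range. Chance alone gives about 1 in 20 such groups. The array apart was replicate 12 for 8 genes, replicate 10 for 6, replicate 11 for 4 and replicate 9 for 3.

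EIF1 read 17607 on replicate 9 against 20638 to 21050 on the others, CCNB1 2983 on replicate 12 against 3194 to 3218, and MAGEA12 5502 on replicate 11 against 5069 to 5136. IGF2BP3 was highest on replicate 10 at 2386 and MUC1 on the same array at 1038, against up to 2257 and 785 elsewhere. EPOR read 469 on replicate 10 against 322 to 343. HLA-C and LIG1 were lowest on replicate 11, at 467 and 244, against at least 540 and 320. BCR and RPLP2 were highest on replicate 12, at 320 and 267, against at most 266 and 177. All 10 of these genes were above background on all 4 arrays.

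The other genes were not above background on all 4 arrays. Replicate 12 was highest for CD74 (54.3), IL2RA (94.0), OSM (34.4) and GAGE1 (8.41), and lowest for MS4A1 (15.4 against 108 to 126). Replicate 10 was highest for OGDH (197 against at most 23.8), LCK (28.1) and LUM (1.02). Replicate 11 was highest for HMOX1 (88.9 against at most 19.3), and replicate 9 for TTR (37.4) and DDX43 (8.97).

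Outside the measurement described, 3151 probe sets name several genes or none, and 1135 of them (36.0%) were above background on all 4 arrays. The brightest had a mean of 27632. They were not analysed by gene.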

How the results depend on the processing

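Limited to probe sets without s, x or a in their name, 3685 of 8371 measured genes were above background (44.0%), with 34 of 48 red cell, 169 of 197 growth, 119 of 135 metabolism and 12 of 143 other lineage members. Fewer genes are measured in this way. With the highest Bacillus control as background, 60 other lineage members were above it. The median percentile over the named genes was 84.2, against 81.6 with the median over probe sets, 76.0 without s, x or a probe sets and 87.9 when ranked among genes above background only, by construction of that ranking. Without 1 array at a time, 6352 to 6492 genes were above background, 62 to 63 red cell, 299 to 302 growth, 189 to 190 metabolism and 38 to 40 other lineage members, and the named genes' median was 83.9 to 84.4. The counts in these 5 groups moved by less than 1.5 times under the other settings, with 6562 genes above a fixed signal of 100 and 5406 above 200. The medians of the growth, metabolism and other lineage classes kept their order under each setting run, with metabolism first, growth next and other lineage last. The red cell, signalling and progenitor medians, 71.5, 62.3 and 51.6, became 55.7, 52.9 and 66.7 when ranked among genes above background. That ranking drops members not above background. It keeps 62 of 75 red cell, 72 of 102 signalling and 19 of 36 progenitor genes. Progenitor genes passed the red cell and signalling genes there, but the medians cover fewer members than before. Of 2199 percentiles of single named genes under all settings, 535 moved by more than their spread between arrays, among them 196 of 198 when ranked among genes above background, 188 of 263 under the median over probe sets and 130 of 160 without s, x or a probe sets. HUWE1 moved farthest, from 99.9 to 12.97 without s, x or a probe sets. Of the named genes with several probe sets, 45 of 118 had them on both sides of background. No paired analysis was possible because each number in the labels belongs to 1 sample only. Signal over background limits the dim genes: those not above it had a median coefficient of variation of 44.8% over 4 arrays. An order among them is therefore uncertain, though it entered the naming of the dimmest list members and the list medians.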
